A study of Saccharomyces cerevisiae with 7 samples.

Results

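One track of IP over input ratios gives the distribution of RNA polymerase II (RNAPII) in wild-type (WT) budding yeast. The track was made from 3 of the 7 samples of the series, 2 IP libraries of the WT strain CY1089 and the single input library of the W303 background, and it holds 228888 windows of 100 bp placed every 50 bp on 15 chromosomes. A region's level was the mean ratio of the windows centred in it. The regions were promoters, taken as the 200 bp before the start codon, open reading frames (ORFs), 3' ends, taken as the 200 bp after the stop codon, and noncoding RNA genes. An ORF was taken as the whole span from start to stop codon, any intron included. Each ORF span was also divided into a 5', a middle and a 3' section of equal length. Of the 6002 nuclear ORFs of the R64 annotation, 5781 had a level. A further 214 lie on chromosome IX, which was not analysed here, and 7 had no window. Promoters had a level for 5771 genes and 3' ends for 5749. Of the 411 noncoding RNA genes, 397 had a level, and 13 of the others lie on chromosome IX.

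All cells were asynchronous log-phase cultures in rich glucose medium, crosslinked with formaldehyde. Chromatin was cut with micrococcal nuclease. The antibody, named 8WG16 in the labels, recognises the C-terminal domain (CTD) of the largest RNAPII subunit. The series also holds *rrp6Δ* and *rtt109Δ* strains, which lack a subunit of the nuclear exosome and a histone H3 acetyltransferase, and their tracks were divided by the same input library. The WT strain carries neither deletion. The 2 WT libraries come from different biological samples by the study's methods, but they were combined before deposit. The WT ratios therefore have no replicate error. No test was possible, genes are not replicates of a condition, and every comparison below is a description of this 1 track.

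RNAPII transcribes all protein-coding genes, the snoRNA genes and most snRNA genes. RNA polymerase I reads the 35S rRNA unit, and RNA polymerase III reads tRNA genes, the 5S rRNA gene and a few other short genes. The CTD is a tail of heptad repeats that is unphosphorylated when RNAPII assembles at promoters. It becomes phosphorylated as RNAPII moves along the gene, and 8WG16 is known to bind the unphosphorylated repeat best. The study's methods give the antibody another clone name and describe it as capturing total RNAPII across the genome. In growing yeast the genes of glycolysis, of ribosomal proteins and of translation factors are among the most heavily transcribed, whereas genes for meiosis, sporulation and galactose use are repressed in glucose. These textbook facts were used as a check of what the ratios measure.

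The ratios did not follow that order. The ORFs of glycolysis and fermentation had the lowest median of the 26 families described here, 0.634, and all 21 of them stood below the median ORF of 0.974. *TEF1*, which encodes translation elongation factor EF-1α, stood at 0.576 and the pyruvate kinase gene *CDC19* at 0.558. In contrast, *IME1*, the master activator of meiosis, stood at 1.60, and genes for meiosis and sporulation had a median of 1.21. Not all repressed genes stood high. The galactose pathway had a median of 0.942 and the glucose-repressed gluconeogenesis genes 0.747, both below the median ORF, as was the phosphatase gene *PHO5* at 0.727. The label calls these values RNAPII over input, but a high ratio over an ORF in this track cannot be read as a high rate of transcription. The values are called IP over input ratios from here on.

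The ratio was lowest inside genes and highest just after them. Promoters had a median of 1.44 (quartiles 1.09 and 2.00), ORFs a median of 0.974 (0.796 and 1.17) and 3' ends a median of 2.12 (1.47 and 2.95). Order-statistic 95% intervals of these medians, which treat genes as independent and hold no replicate error, were 1.42 to 1.47, 0.965 to 0.983 and 2.07 to 2.14. Within the ORF the median was 0.886 in the 5' section, 0.901 in the middle section and 1.06 in the 3' section. The interquartile ranges of promoters and 3' ends overlapped, and that of 3' ends lay wholly above that of ORFs.

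**Figure D1:**
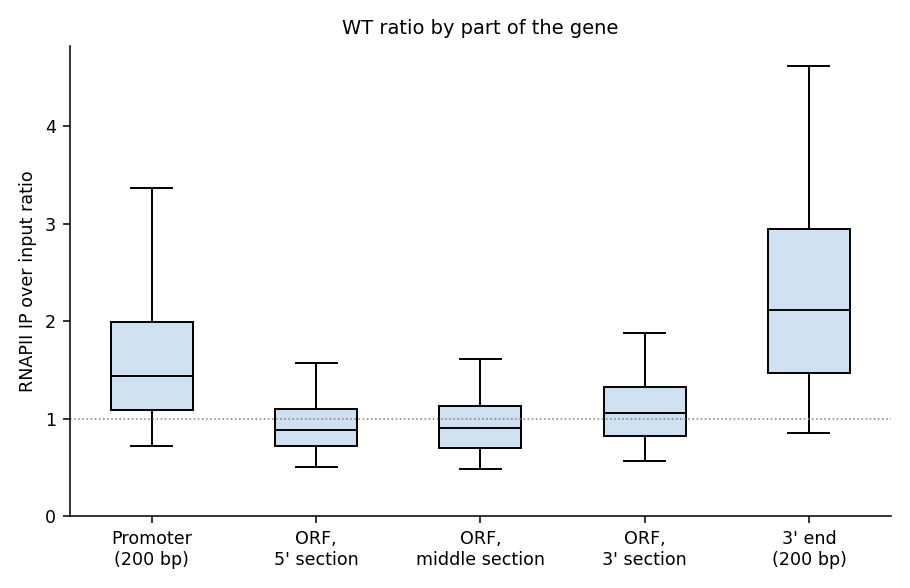
IP over input ratio of each part of the gene in WT, over all genes with a level (5771 promoters, 5749 3' ends). Boxes give the quartiles with the median as a line, whiskers the 5th and 95th percentiles, and the dotted line a ratio of 1, which is the median window of the track. The median was 1.44 in promoters, 0.886, 0.901 and 1.06 in the sections of the ORF, and 2.12 in 3' ends.

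The same order held gene by gene. The promoter stood above its own ORF in 4769 of 5771 genes (82.6%) and at least 1.5-fold above it in 2910 (50.4%). The 3' end stood above its own ORF in 5305 of 5749 genes (92.3%) and at least 1.5-fold above it in 4312 (75%). In 4016 of 5743 genes (69.9%) the 3' end also stood above the promoter. The median ratio of 3' end to ORF was 2.18 (quartiles 1.5 and 3.08) and that of promoter to ORF was 1.51 (1.12 and 2.06). Leaving out regions that touch the ORF of another gene kept both relations, with the promoter above the ORF in 83.3% of 5128 genes and the 3' end above the ORF in 94.0% of 4090.

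Among the 3798 ORFs of at least 900 bp the 3' section was the highest in 2419 (63.7%), the 5' section in 755 (19.9%) and the middle section in 624 (16.4%). Their medians were 0.875 in the 5', 0.919 in the middle and 1.10 in the 3' section. The 3' section stood above the 5' section in 2853 of them (75.1%), with a median log2 difference of 0.32.

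Around the ends of genes the level changed over short distances, and it differed with the neighbouring gene. Over ORFs of at least 1500 bp, the median was highest 50 bp after the stop codon where the next gene converged. It was 2.97 (quartiles 2.03 and 4.21) in the 914 of 1086 genes with that window. Where the next gene ran in tandem, the highest median lay 100 bp after the stop codon. It was 2.26 (1.39 and 3.50) in 955 of 1065 genes. At that distance 861 convergent genes had a window, so windows were absent more often in the convergent class. At 500 bp after the stop codon the medians were 1.18 and 1.04. Upstream of start codons the highest median lay at -150 bp in genes with a tandem neighbour, at 1.64 (1.07 and 2.498, 1054 genes), and at -100 bp in genes with a divergent neighbour, at 1.44 (1.01 and 2.10, 1045 genes). At 350 bp into the ORF both classes were near their lowest, at 0.752 and 0.723.

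**Figure D2:**
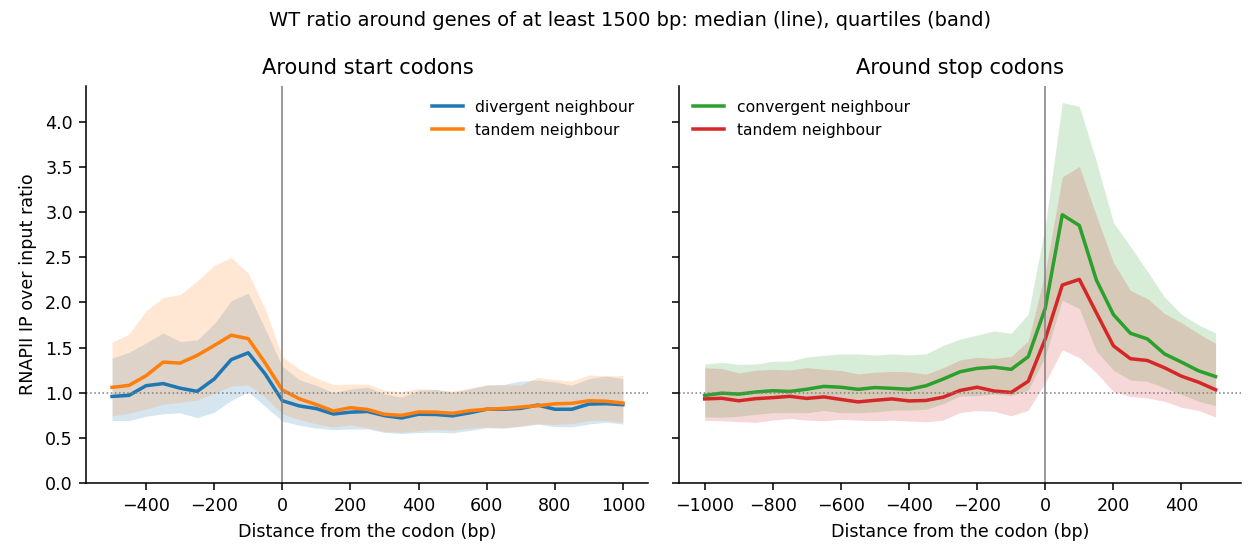
IP over input ratio in WT against the distance of the window from the start codon (left) and the stop codon (right), for ORFs of at least 1500 bp. Lines are medians over genes, bands the quartiles, colours the orientation of the neighbouring gene, and the dotted line a ratio of 1. The peak after stop codons reached a median of 2.97 with a convergent and 2.26 with a tandem neighbour, and the peak before start codons reached 1.64 with a tandem and 1.44 with a divergent neighbour.

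The same difference appeared over whole regions. Promoters had a median of 1.57 in 2773 genes with a tandem upstream neighbour and 1.35 in 2990 genes with a divergent one. A tandem promoter lies just after the stop codon of the upstream gene, so its windows can also be windows of a 3' end. With at least 400 bp between the genes, the medians were 1.53 (1345 genes) and 1.32 (1737 genes). 3' ends had a median of 2.35 in 2941 genes with a convergent neighbour and 1.85 in 2787 genes with a tandem one, and with at least 400 bp between the genes 2.32 (572 genes) and 1.89 (1339 genes). In 1232 convergent genes the gap was shorter than 200 bp, so that the 3' end region ran into the neighbouring ORF.

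The extreme windows lay mostly between genes. The highest 1% of windows (2292 windows at a ratio of 5.03 or more) fell in ORFs in 7.94% of cases, although 73.8% of all windows lie in ORFs. Windows in a 3' end alone made up 5.78% of all windows and 41.4% of the highest 1%. Windows in no ORF, promoter or 3' end made up 11.5% and 30.1%, the second largest share of the highest 1%. Windows in a promoter alone made up 7.67% and 14.3%. Those in the promoter of one gene and the 3' end of another made up 1.24% and 6.24%.

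Absent windows were unevenly spread. The track lacks 3697 windows of its 50 bp grid (1.59%), and the share was 10.7% of the windows in a 3' end alone, 4.46% of those in both a promoter and a 3' end, 3.80% of those in none of these regions, 1.85% of those in a promoter alone and 0.359% of those in ORFs. The medians of the windows present ranked almost as the shares did. The exception was 1.25 for windows in none of these regions and 1.29 for those in a promoter alone. The 95th percentiles of the windows present ranked as the shares did, at 5.53, 5.04, 3.97, 3.69 and 2.00 in the order given above. In 3' ends with at least 1 absent window the median was 2.67 (1232 genes), and in those with none it was 1.99 (4517 genes). Promoters showed the same, with 2.31 in 312 genes and 1.42 in 5459 genes. In the 4222 genes without an absent window in promoter, ORF or 3' end, the medians were 1.43, 0.969 and 1.98, and the 3' end still stood above the ORF in 91.6% of genes and the promoter in 82.1%. Why windows are absent is not given in the sources used here, and their part in the high ratios was not tested. Micrococcal nuclease digestion and base composition can also enter such ratios, and neither could be measured here.

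ORFs were called high at 1.5 times the median ORF or more (1.46) and low at the median divided by 1.5 or less (0.649). By these limits 403 ORFs (6.97%) stood high and 588 (10.2%) low. The ORFs nearest the limits were at 1.462 and 1.460 on the high side and at 0.6492 and 0.6493 on the low side. Both kinds were more frequent among short ORFs, which have fewer windows. Under 500 bp 17.1% of 854 ORFs stood high and 15.0% low, against 3.74% and 9.43% of 2195 ORFs of at least 1000 and under 2000 bp. The median 3' end increased with ORF length, from 1.58 under 500 bp to 1.92 under 1000 bp, 2.18 under 2000 bp and 2.64 at 2000 bp or more.

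An ORF's level was only loosely tied to the levels at its ends. Across genes, the ORF and the promoter had a Spearman correlation of 0.33 and a Pearson correlation of 0.26 (5771 genes), and the ORF and the 3' end 0.23 and 0.19 (5749 genes). Promoter and 3' end were nearly unrelated, at 0.075 and 0.057 (5743 genes). All of these values share the same libraries, and neighbouring windows overlap. In 10 groups of 578 or 579 ORFs ordered by their level, the median promoter ranged upward from 1.04 for the lowest ORFs to 1.73 for the highest, with 1.78 in the group next to the highest. The median 3' end was 1.51, 2.49 and 2.37 in those same groups, the lowest, the one next to the highest and the highest.

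Most chromosomes had nearly the same ORF level, with medians from 0.916 on chromosome XII to 1.01 on chromosome XI. Near the chromosome ends more ORFs stood low. Within 30 kb of an end, 73 of 365 ORFs (20%) stood low and 33 (9.04%) high, with a median of 0.899. Elsewhere 9.51% stood low and 6.83% high, with a median of 0.978.

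The textbook genes of glycolysis had ORFs below the median ORF and 3' ends above their own ORF, the latter as in 92.3% of all genes. *TDH3*, which encodes glyceraldehyde-3-phosphate dehydrogenase, had a ratio of 2.75 in the promoter, 0.521, 0.631 and 0.998 in the 5', middle and 3' sections of the ORF and 3.81 in the 3' end. The enolase gene *ENO2* had 3.62 in the promoter, 0.427, 0.552 and 0.958 in the sections and 3.17 in the 3' end. In both genes the 5' section was the lowest part and the 3' end stood several-fold above it. *PGK1* (phosphoglycerate kinase) had 1.63 in the promoter, 0.681 over the ORF and 3.38 in the 3' end. The alcohol dehydrogenase gene *ADH1* differed from these in a high 3' section, 1.46, after 0.528 and 0.661, with 1.10 in the promoter and 1.70 in the 3' end.

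Other highly used genes also had a 3' end above the ORF. *CDC19* had 1.53 in the promoter, 0.558 over the ORF and 2.29 in the 3' end. *TEF1*, whose sequence is nearly identical to that of *TEF2* so that reads may have been split between the copies, had 1.20, 0.576 and 3.03 in the same order. The actin gene *ACT1* had 1.34, 0.724 and 2.73, with its 5' section (1.08) above its middle (0.497) and 3' (0.619) sections. *PMA1*, the plasma membrane proton pump, had no window in its promoter, 0.858 over the ORF and 2.81 in the 3' end. *HSP82*, an Hsp90 chaperone gene, had 1.07, 0.675 and 2.69. All of these 9 ORFs stood below the median ORF, and all 9 3' ends stood above 1.5 times their ORF. Of all genes, 75% had a 3' end at least 1.5-fold above the ORF.

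Of the 4 textbook genes that are repressed or little used in such cultures, *IME1* stood high over the ORF, *GAL1* and *HO* lay near the median ORF and *PHO5* lay below it. *GAL1*, the galactokinase gene, had 5.21 in the promoter, 1.04 over the ORF and 1.71 in the 3' end. Within its ORF the ratio declined from 1.26 in the 5' section to 1.09 and 0.789. The mating-type switching endonuclease gene *HO* had 3.97, 1.03 and 2.57. *IME1* had 3.41 in the promoter, 1.05, 1.79 and 2.04 in the sections and 2.21 in the 3' end. *PHO5*, the acid phosphatase gene that is off when phosphate is plentiful, had 1.14, 0.727 and 2.44. *GAL1*, *HO* and *IME1* each had a promoter above 2.17, the limit for a high promoter, which 20% of all promoters passed.

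**Figure D3:**
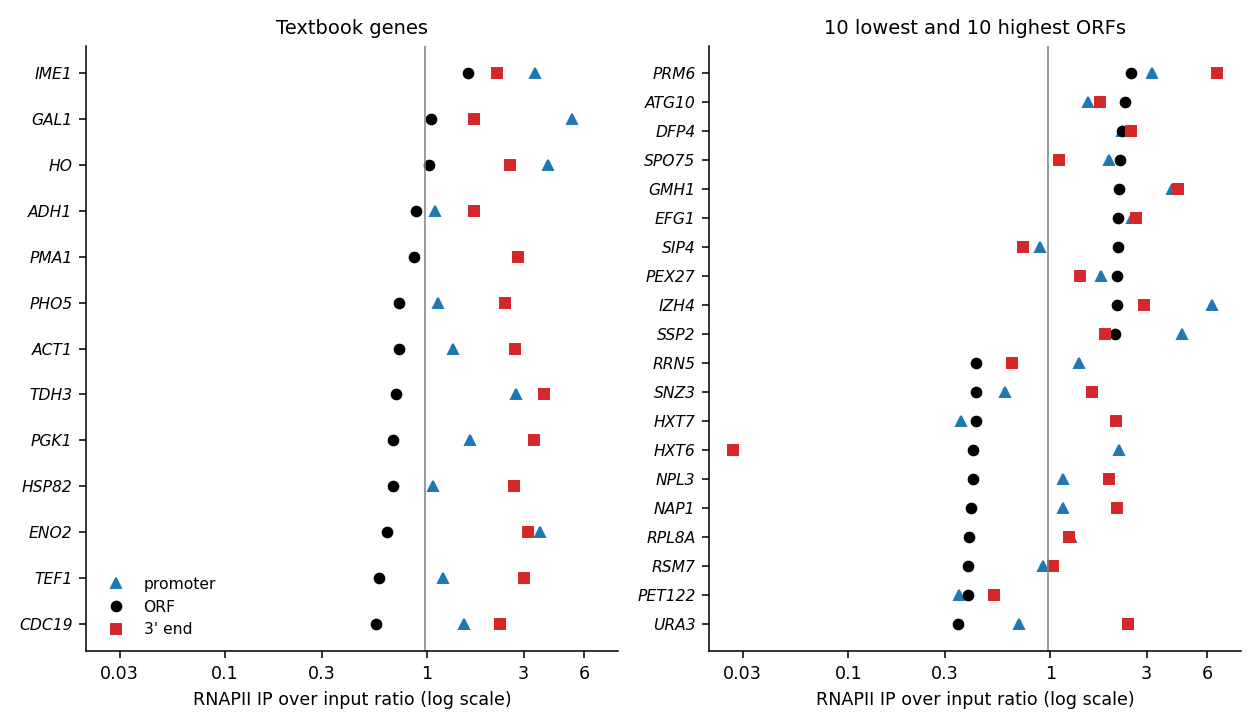
IP over input ratio (log scale) in WT of the promoter (triangles), the ORF (circles) and the 3' end (squares) of 13 textbook genes (left) and of the 10 lowest and 10 highest ORFs of at least 500 bp (right), in the order of the ORF level. The vertical line is the median ORF, 0.974. Of the textbook genes only *IME1* (1.60), *GAL1* (1.04) and *HO* (1.03) stood above it, and *HXT6* had a 3' end of 0.027. *PMA1* had no window in its promoter.

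The highest ORFs were picked among 4469 ORFs that have a gene symbol, are at least 500 bp long and overlap no other ORF. *PRM6*, named for its induction by mating pheromone, was highest at 2.51, with 3.21 in the promoter and 6.69 in the 3' end. *ATG10*, the conjugating enzyme of the Atg12 system of autophagy, stood at 2.34 with a peak of 3.94 in its middle section. *DFP4* stood at 2.28 and declined from 3.60 in its 5' section to 1.47 in its 3' section. *SPO75*, a sporulation gene, stood at 2.21 with 2.98 in its middle section, and its promoter (1.94) and 3' end (1.10) both stood below the ORF.

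The other 6 were *GMH1* (2.19), which encodes a Golgi membrane protein, the ribosome biogenesis gene *EFG1* (2.17), *SIP4* (2.17), an activator of gluconeogenic genes, the peroxisome gene *PEX27* (2.14), *IZH4* (2.14), linked to zinc homeostasis, and the spore wall gene *SSP2* (2.09). *SIP4* had an ORF far above both its promoter (0.890) and its 3' end (0.729), which is the reverse of the common shape. *IZH4* and *SSP2* had high promoters, 6.35 and 4.50. *GMH1* was high toward its end, with 3.88 in the 3' section and 4.29 in the 3' end.

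The lowest ORFs were of several kinds. *URA3*, which encodes an enzyme of uracil synthesis, was lowest at 0.349, with 0.704 in the promoter and 2.44 in the 3' end. *PET122*, an activator of mitochondrial translation, stood at 0.391 and was low on both sides, at 0.355 in the promoter and 0.525 in the 3' end. *RSM7* (0.393) and *RPL8A* (0.396) encode proteins of the mitochondrial and the cytosolic ribosome, and *RPL8A* has a close copy, *RPL8B*, with which reads may have been shared. The histone chaperone gene *NAP1* stood at 0.404, the mRNA-binding protein gene *NPL3* at 0.416, *SNZ3*, a gene of vitamin B6 synthesis with close relatives, at 0.429, and *RRN5*, a factor of RNA polymerase I initiation, at 0.431. Apart from *PET122* and *RRN5* (0.648), each of the 8 genes named in this paragraph had a 3' end above 1.

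The hexose transporter genes *HXT6* (0.417) and *HXT7* (0.428) complete the lowest 10 and belong to a stretch that stood apart. Their sequences are nearly identical, and the space between them on chromosome IV was almost empty. From position 1156001 to 1158100 all 41 windows were at or below 0.065, and from 1158151 to 1159750 all 29 windows were at or below 0.037. No other place in the track had at least 4 windows in a row below 0.1. The 3' end of *HXT6*, 0.027, and the promoter of *HXT7*, 0.361, are among the lowest of their kind. These 4 values are uncertain, and whether the strain carries both copies was not tested.

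The highest promoters, among those that touch no ORF of another gene, included those of the DNA repair gene *HIM1* (10.1), the multicopper oxidase gene *FET5* (7.05), *MET32* (6.53), a regulator of methionine synthesis, and the dynein subunit gene *DYN3* (6.52). Their ORFs ranged from 0.854 in *FET5* to 2.04 in *HIM1*, so a high promoter did not go with 1 kind of ORF. The lowest promoters were those of *STT3* (0.288), the catalytic subunit of oligosaccharyltransferase, *PET122* and *OXA1* (both 0.355), *HXT7* (0.361) and *STP3* (0.398). *PET122* and *OXA1*, both needed for mitochondrial membrane proteins, are divergent neighbours and share the same short promoter region, so theirs is 1 value.

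The highest 3' ends were those of *GPM2* (12.5), a homologue of phosphoglycerate mutase, and *RPN4* (10.04), the activator of proteasome genes. Both converge on the same gap of chromosome IV and share windows. *YPP1* (9.05), *HXT10* (8.77) and *CSR2* (8.68) followed. The ORFs of these 5 genes stood between 0.991 and 1.36, and none of them passed the limit for a high ORF. The lowest 3' ends after that of *HXT6* were those of *API2* (0.372), *SDS24* (0.458), the anaphase-promoting complex gene *SWM1* (0.469) and *EGD1* (0.498), a subunit of the nascent polypeptide-associated complex.

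Families were described by the number of members standing high or low and by the median ORF, beside the shares of all ORFs (6.97% high, 10.2% low). The shares for other regions differ. Of all promoters 20% stood high and 17% low, and of all 3' ends 20.8% stood high and 22.5% low. Of the 25 families with at least 5 members that had a level, 20 had a median below that of all ORFs and 5 above. Order-statistic 95% intervals of these medians, which treat genes as independent, included 0.974 in many families. Of the 5 above, this was so for ribosome biogenesis factors, nucleoporins and peroxins (0.933 to 1.38). Of the 20 below, it was so for the mitochondrial ribosomal, proteasome, histone, galactose, gluconeogenesis, hexose transporter, phosphate, COS, vacuolar ATPase, RNAPII and mating lists. The other intervals did not include it. The lists were drawn from textbook functions and gene names, and some hold close copies whose reads cannot be told apart.

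**Figure D4:**
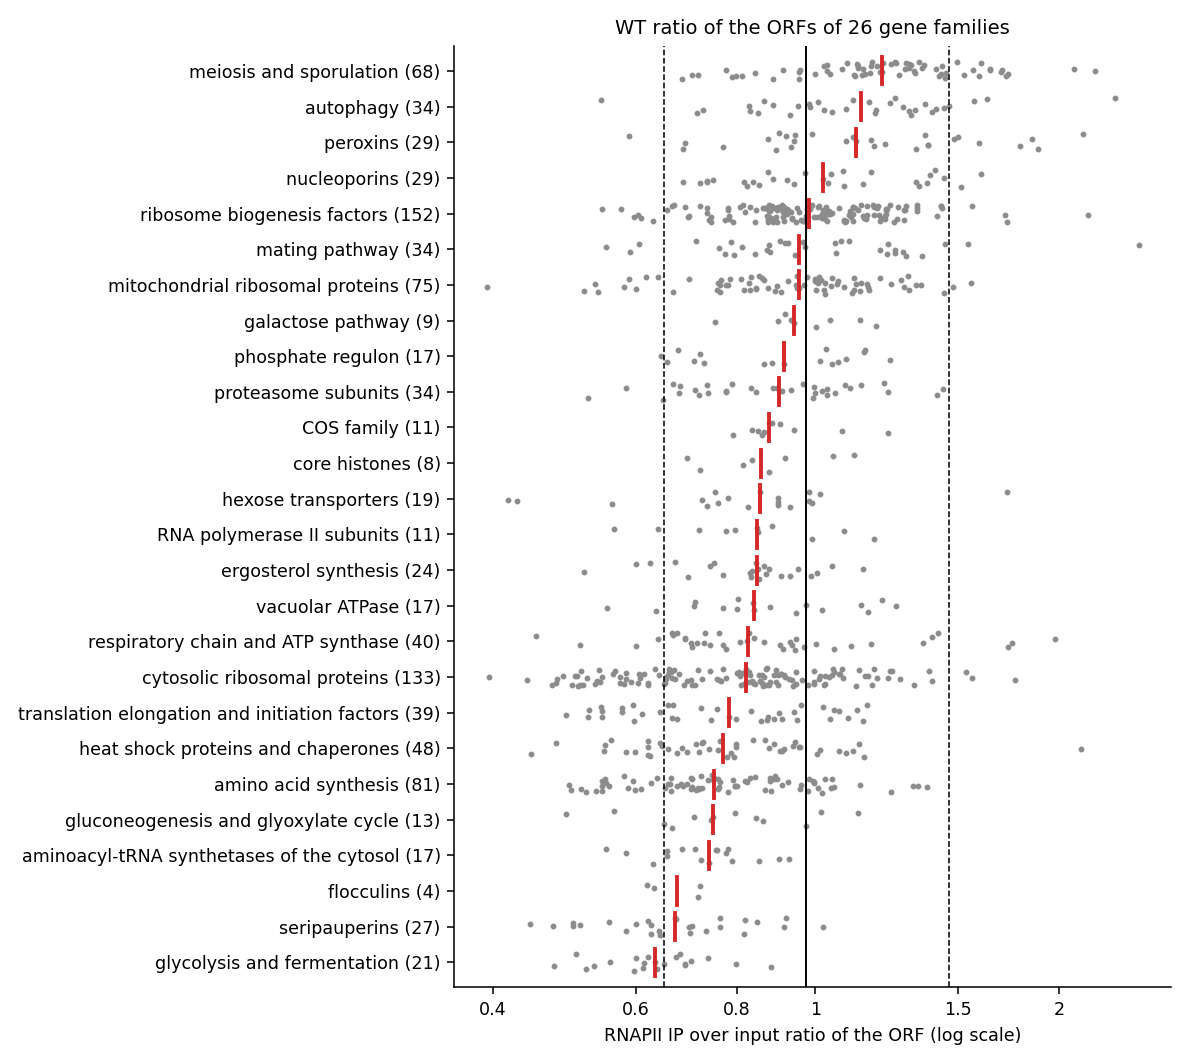
IP over input ratio of each ORF (grey points, log scale) in WT by gene family, with the number of members in parentheses and the family median as a red bar. The solid line is the median of all ORFs (0.974) and the dashed lines are the limits for high (1.46) and low (0.649). Glycolysis and fermentation had the lowest median, 0.634, with all 21 members left of the solid line, and meiosis and sporulation the highest, 1.21.

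The families of central metabolism had medians below that of all ORFs. In glycolysis and fermentation 12 of 21 members stood low and none high, from *GPM1* (phosphoglycerate mutase) at 0.476 to *ADH1* at 0.882. The triosephosphate isomerase gene *TPI1* (0.53) and the pyruvate decarboxylase gene *PDC1* (0.64) were among the low ones. The promoters of the family were not low, with a median of 1.64. Of the 21 promoters 7 stood above the limit for a high promoter, which 20% of all promoters passed. Their 3' ends had a median of 3.17, and 10 of 21 stood above 3.17, the limit for a high 3' end, which 20.8% of all 3' ends passed, and none was low, against 22.5% of all. In all 21 genes the 3' end stood at least 1.5-fold above the ORF, against 75% of all genes.

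Amino acid synthesis had a median of 0.748, with 18 of 81 members low and none high, from *MET13* (0.496), a methylenetetrahydrofolate reductase gene, to the arginine synthesis gene *ARG3* (1.37). Gluconeogenesis and the glyoxylate cycle, repressed in glucose, had a median of 0.747 with 2 of 13 low, the alcohol dehydrogenase gene *ADH2* at 0.492 being the lowest and the succinate-fumarate carrier gene *SFC1* (1.13) the highest. *ADH2* is close in sequence to *ADH1*, so its value is uncertain. Ergosterol synthesis had 0.846, from *MVD1* (0.518) to *ERG29* (1.14), with 3 of 24 low. Genes of the respiratory chain and ATP synthase had 0.826, with 4 of 40 low and 3 high, from *QCR6* (0.451) to *QCR8* (1.98), both subunits of the cytochrome bc1 complex. The vacuolar ATPase genes had 0.840, from *VMA13* (0.553) to *VMA22* (1.26).

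Cytosolic ribosomal protein genes had a median of 0.820, with 35 of 133 low (26.3%) and 3 high, from *RPL8A* (0.396) to *RPL31A* (1.77). The other 2 high members were the paralogues *RPS30A* (1.53) and *RPS30B* (1.56). In all 3 the 5' section was the highest section of the ORF, at 2.45 in *RPL31A*, 2.20 in *RPS30A* and 2.33 in *RPS30B*. All 3 genes hold an intron, but how many other members do was not counted, so this does not set them apart. The family as a whole ran against the genome, with a median of 0.886 in the 5', 0.728 in the middle and 0.725 in the 3' section. These sections include any introns and were not limited to coding sequence. The 5' section stood above the 3' section in 81 of the 131 members with both values, whereas the 3' section stood above the 5' section in 68.9% of all ORFs with both values. Their promoters had a median of 1.17, and 30 of 133 lay below the limit for a low promoter (0.963), as did 17% of all promoters. The list drew in *RPP1*, a subunit of RNase P, by its name. Many of these genes are paralogue pairs, which limits the value of single members.

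Translation factors had a median of 0.782, with 12 of 39 low and none high, from *EFT1* (0.491), the elongation factor 2 gene and a copy of *EFT2*, to *SUI1* (1.16), an initiation factor gene. Aminoacyl-tRNA synthetases had 0.739, with 3 of 17 low, and all 17 stood below the median ORF, from *FRS2* (0.552) to *MES1* (0.926), the synthetases for phenylalanine and methionine. By contrast, ribosome biogenesis factors had a median of 0.981, close to that of all ORFs, with 6 of 152 low and 4 high. The high ones were *EFG1* (2.17), *CMS1*, *UTP20* (1.71) and *URB1* (1.56), and the lowest was the rRNA methyltransferase gene *BUD23* (0.545). Mitochondrial ribosomal proteins had 0.953, with 9 of 75 low and 2 high, from *RSM7* (0.393) to *MRP35* (1.56), and the list took in *MRP8*, one of the low ones, by its name.

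Heat shock proteins and chaperones had 0.769, with 13 of 48 low and 1 high, from the ribosome-associated *ZUO1* (0.446) to the prefoldin subunit *GIM4* (2.13). Proteasome genes had 0.902, with 3 of 34 low and none high, from *RPN10* (0.524) to *RPN8* (1.44), and the list drew in *RPN4* by its name. Subunits of RNAPII itself had 0.847, from *RPB11* (0.563) to *RPB5* (1.18). Their median promoter was 1.02, and 5 of 11 promoters stood low, against 17% of all promoters. Nucleoporins had 1.02, with 2 of 29 high and none low, from *POM34* (0.687) to *NUP192* (1.60). In 28 of the 29 the 3' section stood above the 5' section, against 68.9% of all ORFs with both values. The median nucleoporin ORF was 2181 bp long, and among all ORFs of at least 900 bp the share was 75.1%.

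Core histone genes had a median ORF below and a median promoter above that of all genes. Their median ORF was 0.856, from *HTB1* (0.694) to *HTB2* (1.12), with none of 8 high or low. Their median promoter was 2.25, and 4 of 8 promoters stood high, against 20% of all promoters. That of *HTB2* led at 4.62. The divergent *HTA2* and *HTB2* share their upstream region.

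Hexose transporters had a median ORF of 0.854, from *HXT6* (0.417) to *HXT14* (1.72). Their median 3' end was 3.27, and 10 of 18 stood high, against 20.8% of all 3' ends. The galactose pathway had 0.942, from *PGM2* (0.753), which encodes phosphoglucomutase, to *GAL80* (1.19), the repressor of the pathway, with none of 9 high or low. Its promoters had a median of 2.10 with 4 of 9 high, against 20% of all promoters. *GAL1* led at 5.21, and the divergent *GAL10*, which shares that region in part, stood at 3.45. The phosphate regulon had 0.915 with 1 of 17 low, from *PHO11* (0.644), a near copy of *PHO12*, to *PHM8* (1.24).

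Genes for meiosis and sporulation had the highest median of the families, although these cultures were growing in rich medium. Their median ORF was 1.21, with 13 of 68 high (19.1%) and none low, from *REC107* (0.684), a recombination gene, to *SPO75* (2.21). The others standing high were *SSP2*, *SPO21*, *ADY4*, *ADY3*, *MAM1*, *MSH4*, *REC8*, *IME1*, *SAE3*, *CDA2*, *OSW1* and *SPR28*. *SPO21*, of the meiotic spindle pole body, had 1.73 over the ORF, 3.16 in the promoter and 6.87 in the 3' end. *REC8*, the meiotic cohesin gene, had 1.64 over the ORF and 5.001 in the promoter, and within the ORF it declined from 2.34 in the 5' section to 1.29 in the 3' section. The monopolin gene *MAM1* had 1.69 over the ORF. Promoters of the family had a median of 1.91 with 25 of 68 high, against 20% of all promoters. Its 3' ends had a median of 2.19, near that of all genes.

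Autophagy and peroxisome genes had the next highest medians, and the peroxins the largest share of members standing high. Autophagy genes had a median of 1.14, with 4 of 34 high (*ATG10*, *ATG38*, *ATG29* and *ATG21*) and the lipase gene *ATG15* low at 0.544. Peroxins, which build and supply peroxisomes, had 1.12, with 7 of 29 high (24.1%), led by *PEX27* (2.14) and *PEX9* (1.88), and *PEX11* low at 0.589. Their 3' ends had a median of 1.74, below that of all genes, and 2 of 29 stood high, against 20.8% of all 3' ends. The mating pathway had 0.954, with *PRM6* (2.51) and *STE14* (1.54), a methyltransferase of a-factor maturation, high and 3 of 34 low, the agglutinin gene *AGA1* (0.551), the a-factor gene *MFA2* (0.59) and the kinase gene *FUS3* (0.61). This family lay so near the median ORF that its side changed with the processing.

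Families found mostly at chromosome ends had medians below that of all ORFs. Seripauperins and the related *DAN* and *TIR* cell wall genes had a median of 0.671, with 13 of 27 low (48.1%) and none high, from *PAU13* (0.444) to *PAU7* (1.02), and 17 of the 27 lie within 30 kb of a chromosome end. The 4 flocculins with a level had 0.674, from *FLO1* (0.620) to *FLO10* (0.721). The COS family had 0.877, from *COS7* (0.790) to *COS111* (1.23), which the list drew in by its name, with none of 11 high or low although 10 lie within 30 kb of an end. Members of these 3 families are near copies of each other, and reads from them may have been shared or lost.

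The tracks of *rrp6Δ* and *rtt109Δ* were set beside WT only as values, since all were divided by the same input and differences were not tested. Relative to the median ORF of its own track, the median promoter stood at 1.48 (WT), 1.42 (*rrp6Δ*) and 1.49 (*rtt109Δ*), and the median 3' end at 2.17, 2.11 and 1.82. The median ORF of glycolysis and fermentation was 0.634 in the WT track, 0.552 in that of *rrp6Δ* and 0.941 in that of *rtt109Δ*, where the medians of all ORFs were 0.974, 0.982 and 0.942. *TDH3* was at 0.702, 0.497 and 1.05, and *PMA1* at 0.858, 0.682 and 1.37. Cytosolic ribosomal protein genes were at 0.820, 0.767 and 1.04, and meiosis and sporulation at 1.21, 1.27 and 1.05. The glycolysis and ribosomal protein lists thus had medians well below that of all ORFs in WT and *rrp6Δ*, and medians near or above it in *rtt109Δ*.

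Most noncoding RNA genes are short, so their levels rest on few values. The 264 tRNA genes, read by RNA polymerase III, had a median of 1.08 (quartiles 0.909 and 1.26) from a median of 2 windows. Of these genes 31 were at or above the limit for a high ORF (11.7%) and 9 at or below that for a low one (3.41%). The shares were 6.97% and 10.2% of all ORFs, and 17.1% and 15.0% of ORFs under 500 bp. The flanks of the tRNA genes were higher, with a median of 1.88 in the 200 bp before the gene and 1.78 in the 200 bp after it. Both flanks stood above the gene in 207 of 261 tRNA genes (79.3%). By distance from the start of the gene, the median was 1.83 at -50 bp, 1.22 at 0, 1.03 at 50 bp and 1.97 at 150 bp.

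**Figure D5:**
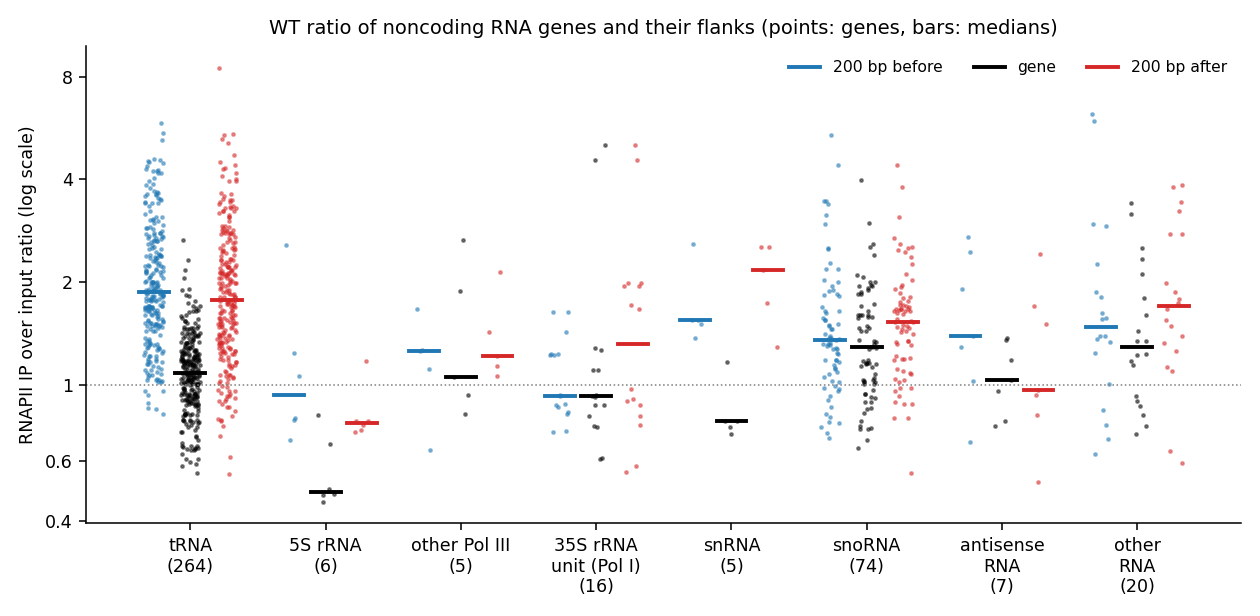
IP over input ratio (log scale) in WT of noncoding RNA genes (black), the 200 bp before them (blue) and the 200 bp after them (red). Points are genes, bars are class medians, numbers in parentheses are genes with a level, and the dotted line is a ratio of 1. The 264 tRNA genes had a median of 1.08 between flanks of 1.88 and 1.78, and the 74 snoRNA genes had 1.29 between 1.36 and 1.53.

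The tRNA genes ranged from 0.55 to 2.65. The 3 lowest, YNCL0007W (0.55), YNCB0016W (0.58) and YNCD0013C (0.59), and 2 of the 3 highest, YNCL0036C (2.65) and YNCB0005C (2.16), each rest on 1 window, and YNCK0016W (2.32) on 2. Many tRNA genes exist in identical copies, so single values are uncertain.

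The 74 snoRNA genes described here are read by RNAPII and had a median above that of the tRNA genes. With every window that overlaps the gene, the medians were nearly equal, 1.45 for snoRNA and 1.42 for tRNA genes. With windows centred in the gene, the snoRNA median was 1.29 (quartiles 1.01 and 1.69). By that measure 30 of 74 were at or above 1.46 (40.5%) and none at or below 0.649. For ORFs under 500 bp, which also have few windows, the first share was 17.1%. Both flanks stood above the gene in 33 of 74 (44.6%) and both below it in 18, and the flank medians were 1.36 before and 1.53 after. By distance from the start of the gene, the median was 1.49 at 0, 1.24 at 50 bp and 1.55 at 250 bp. *SNR62* (3.98), *SNR47* (2.99) and *SNR78* (2.59) were highest, and *SNR64* (0.65), *SNR24* (0.69) and *SNR55* (0.74) lowest. *SNR47* rests on 1 window and the other 5 on 2 each.

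The snRNA genes, which encode RNAs of the spliceosome, stood lower. *SNR19* (U1) was at 0.72, *LSR1* (U2) at 0.75, the short and long forms of *SNR7* (U5), which share their windows, at 0.78, and *SNR14* (U4) at 1.17. In all 5 entries both flanks stood above the gene, with medians of 1.55 before and 2.17 after. U6 is the exception among spliceosomal RNAs in being read by RNA polymerase III, and its gene *SNR6* stood at 1.89, above both flanks (1.27 and 1.21).

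The other RNA polymerase III genes did not share a level. *SNR52* was at 2.66 with flanks of 1.26 and 1.43. *SCR1*, the RNA of the signal recognition particle, was at 1.05 with flanks of 1.11 and 1.14, *RNA170* at 0.93, and *RPR1*, the RNA of RNase P, at 0.82 with flanks of 1.67 and 2.14. The 6 copies of the 5S rRNA gene stood below the median ORF, from 0.46 in RDN5-2 to 0.81 in RDN5-1. Their median was 0.487, and 4 of 6 were at or below 0.649, against 10.2% of all ORFs and 15.0% of ORFs under 500 bp. The copies are nearly identical, so reads among them cannot be told apart.

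Over the 35S rRNA unit, read by RNA polymerase I, the level changed within the unit and did so alike in both annotated copies. RDN25, the 25S rRNA, was at 0.61 in both copies and RDN18, the 18S rRNA, at 1.11 in both. ETS2, the spacer after the 25S rRNA, was at 5.05 and 4.56, whereas ETS1, the spacer before the 18S rRNA, was at 0.76 and 0.75. ITS1 was at 1.27 and 1.28 and ITS2 at 0.87 and 0.93. The annotation holds 2 copies of an array of many identical repeats, so these values are not independent measurements.

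Antisense and other noncoding RNAs were varied. The 7 antisense RNAs, all of which overlap an ORF, ranged from *RME2* (0.76), *SUT169* (0.79) and *TBRT* (0.96) to YNCM0001W (1.18), *RME3* (1.35) and YNCB0008W (1.37), with a median of 1.04. YNCB0008W runs across *GAL1* and most of *GAL10*. The track has no strand, so reads from an antisense RNA and from the gene it overlaps cannot be told apart. The 20 other RNAs had a median of 1.29, and 7 of them (35%) were at or above 1.46, against 6.97% of all ORFs. *RUF22* (3.41), *SUT035* (3.17) and *SUT390* (2.53) were highest and the 2 copies of *RUF5* (0.72 and 0.76) and *RUF23* (0.82) lowest. *IRT1*, whose transcription is known to repress *IME1*, was at 1.23 and lies just upstream of it. The telomerase RNA gene *TLC1* was at 1.61 with 3.23 in its 3' flank.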

How the data were processed

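Per the labels, the authors used FastQC, Bowtie2, SAMtools, deepTools and bedtools with the sacCer3 build (no versions given). The study's methods name an earlier published procedure or MACS2, and a clone name for the antibody that differs from that of the labels. The authors deposited linear IP over input ratios in 100 bp windows, 1 track per genotype. The median window of the WT track is exactly 1. A legend of the study states that a browser view of WT and *rtt109Δ* was scaled to each library's reads, and whether this holds for the deposited ratios is not given in the sources used here. How libraries were combined, and their depth, are not given in the sources used here. No counting error could be derived.

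Levels are means of windows centred in a region, with no pseudocount and no filter on low values. Genes came from the RefSeq R64 annotation, strand from systematic names. Scripts (Python 3.11.15, numpy 2.4.6, pandas 2.3.3) were tested on simulated data.

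The genes named were 13 textbook genes (*SUC2* lies on chromosome IX), the 10 highest and lowest ORFs, the 5 highest and lowest promoters and 3' ends, family extremes, and the 3 highest and lowest genes of each noncoding class. One gene that this rule names is not reported here. Others were named after their values were seen. Members and lists were chosen with earlier results of these data known. Promoter sequence was not analysed here. The list of Ty ORFs had 0 members in the annotation used. Alternatives were other window rules, region sizes and gene sets.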

Additional observations from a re-analysis of the deposited data

How the results depend on the processing

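No paired analysis was possible because the 2 replicates were combined into 1 deposited track, so none of them could be left out either. Of the 179 values under alternatives, 151 stayed within the interval of the main median, or within 1.5-fold of the main count, and 28 moved. For the 5 snRNA genes the range of the genes stood in for the interval. Medians of ratios and counts have no sign that could reverse. The log2 difference of the 3' section over the 5' section has one, and it stayed positive. With windows wholly inside a region the medians were 1.52 for promoters, 0.950 for ORFs and 2.19 for 3' ends. With the median of windows they were 1.38, 0.900 and 1.98. Regions of 100 bp gave 1.29 for promoters. ORFs without their outer 100 bp gave 0.935, and regions with no absent window 1.42 for promoters and 1.99 for 3' ends (both chosen after seeing the data). At a limit of 2-fold, 79 ORFs stood high and 72 low, and among ORFs of at least 500 bp 256 stood high. A promoter at least 1.5-fold above its ORF was found in 2910 genes. The log2 difference of the 3' section over the 5' section was 0.39 in ORFs of at least 1500 bp. With every window that overlaps the gene, tRNA genes had 1.42, snoRNA genes 1.45 and snRNA genes 1.21. In the main setting these were 1.08, 1.29 and 0.783. Of 124 family medians under alternatives, 120 stayed on their side of the median ORF, and the other 4 were all of the mating pathway (0.94 to 1.06). Short genes rest on few windows, and depth is unknown.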
